A study of Mus musculus with 12 samples.

Results

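Plasminogen activators and protease inhibitors were represented by 7 genes: the activators Plau and Plat, the receptor Plaur, and the inhibitors Serpine2, Timp1, Timp2 and Timp3. They were chosen by gene name among the non-control probes, which gave 8 of 39429 probes and 7 of the 20470 genes kept, and all 8 probes passed the filter on dim spots. The arrays measured total RNA from the skin of C57BL/6 mice, males aged about 8 weeks, in 4 groups of 3 arrays. Sutured incisions of 1 cm received an intradermal injection of 100 nmol of promiR-29, a miR-29b mimic, or of PBS, the vehicle, 72 h after wounding. Intact skin was injected with 100 nmol of antimiR-29, an inhibitor of miR-29, or with PBS. Skin was taken 24 h after injection, which put the incised samples at day 4 of healing. Both oligonucleotides were set against vehicle, and no group with a control oligonucleotide was analysed here. The labels call the arrays of a group biological replicates without naming a mouse for each, so the p-values measure the spread between these samples.

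The plasminogen system turns the circulating zymogen plasminogen into plasmin, a protease that dissolves fibrin and cleaves matrix proteins. Plau encodes urokinase, which works on the cell surface through its receptor Plaur, and Plat encodes tissue plasminogen activator, which works mainly on fibrin. Serpine2, also called protease nexin-1, traps thrombin and both activators. The TIMP proteins inhibit matrix metalloproteinases, several of which plasmin can activate. In healing skin, keratinocytes at the wound edge use urokinase and plasmin to move through the fibrin clot.

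The miR-29 family was the manipulated factor, and its mature RNAs are shown because the mimic stands for miR-29b and the inhibitor is directed at miR-29. RefSeq (GRCm38.p6) gives the sequences below, which share the seed at bases 2 to 8, in capitals. They lie at chr6:31062673-31062694 (minus strand) for miR-29a, at chr1:195037091-195037113 (plus) and chr6:31063025-31063047 (minus) for miR-29b, and at chr1:195037600-195037621 (plus) for miR-29c.
mmu-miR-29a-3p: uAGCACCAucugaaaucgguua
mmu-miR-29b-3p: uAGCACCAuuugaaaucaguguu
mmu-miR-29c-3p: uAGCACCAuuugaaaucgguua

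All 8 probes were 60 bases long. By the mm9 positions in the scanner files, the Plau probe lay at chr14:21662242-21662301 (plus), the Plat probe at chr8:23892531-23892590 (plus), the Plaur probe at chr7:25260569-25260628 (plus), the Timp1 probe at chrX:20451802-20451861 (plus) and the Timp3 probe at chr10:85811696-85811755 (plus). The brighter Timp2 probe lay at chr11:118163146-118163205 (minus). The Serpine2 probe and the second Timp2 probe spanned 2618 and 6778 bases of the genome, at chr1:79793476-79796093 and chr11:118171964-118178741 (both minus), so each crosses a splice junction. Exon and UTR annotation of that build was not used here. Their sequences are shown because such a probe reads spliced RNA, and because the Timp2 probes did not give the same picture.
Serpine2 probe: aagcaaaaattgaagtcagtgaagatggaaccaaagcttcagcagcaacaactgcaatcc
Timp2 second probe: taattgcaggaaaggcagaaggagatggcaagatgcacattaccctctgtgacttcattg

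On each array 65.6 to 73.8% of the probes had Cy5, the dye of the skin RNA, well above background, and 0 spots were saturated. The number of arrays limits the precision. Intact PBS array 3 stood apart: across genes its median correlation with its group was 0.921, and no other array was below 0.939. Intact PBS array 2 had a hair follicle marker score of 4.53, while the other arrays lay between -0.49 and -0.12. A marker score is the median log2 ratio of the listed genes, each centred over the 12 arrays. All 10 listed keratinocyte markers were measured, which cannot test the skin label because no other tissue was compared. Limma called 0 of them in any comparison (unadjusted p under 0.05 for 0 with mimic, 3 with antimiR and 3 in incised against intact skin). Of 20469 genes, 2553, 4925 and 6427 had such a p in these comparisons. With antimiR all 10 keratinocyte markers were lower, at a median of -0.24. Col1a1, a known miR-29 target, had log2 ratios of 1.75, 1.29 and 0.28 in mimic-treated incisions, all below the 2.76, 2.13 and 2.28 in PBS-treated incisions. In intact skin it had 3.10, 2.83 and 2.87 with antimiR, all above the 2.17, 2.71 and 0.44 with PBS. Groups were as fully separated for 24.2% and 25.8% of all genes in these comparisons. Action of the oligonucleotides on miR-29 targets was not tested.

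Values for the 7 genes are log2 ratios of skin RNA over a mouse universal reference RNA hybridised to every array. They compare groups within a probe and do not rank 1 gene against another. A gene was called where limma's Benjamini-Hochberg adjusted p over all genes was under 0.05. In incised against intact skin under PBS, 4 of the 7 genes were called, 2 higher and 2 lower, where 15.4% of all genes were called (9.86% higher and 5.55% lower). In antimiR against PBS in intact skin 1 was called, lower, where 9.71% of all genes were called (4.47% lower). In mimic against PBS in incised skin limma called 0, where 0.591% of all genes were called, and 3 of the 7 had an unadjusted p under 0.05, as had 2553 of all genes. The plot of log2 ratios by array shows all of these values.

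**Figure D1:**
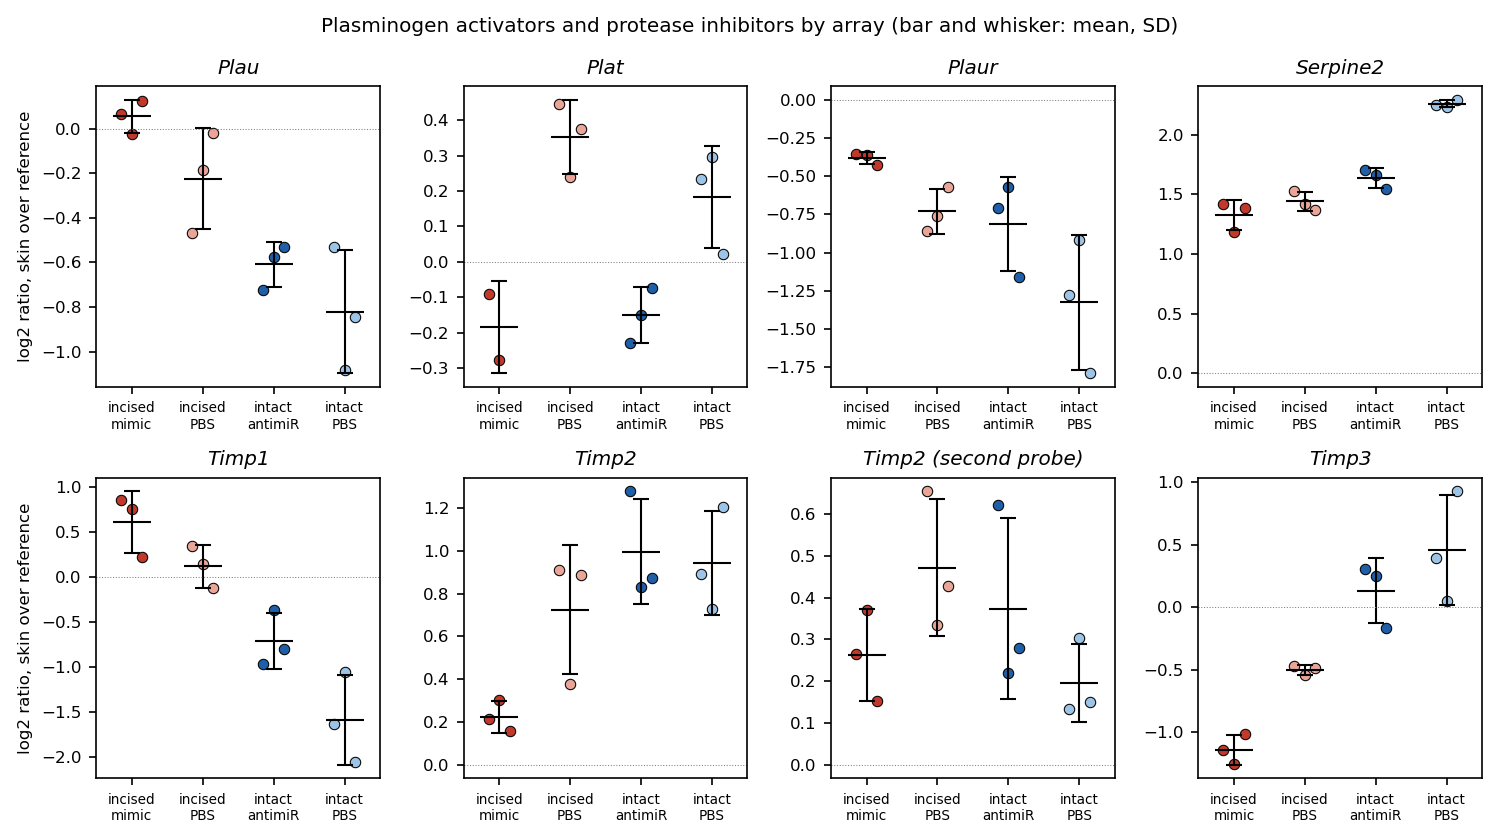
Log2 ratio of skin over reference RNA (vertical axis, own scale in each panel) on every array for the 8 probes of the 7 genes, by group, with the mean and SD as bar and whisker. Timp1 lies highest in mimic-treated incisions (0.22 to 0.86) and lowest in PBS-treated intact skin (-2.05 to -1.06), while Serpine2 is highest in PBS-treated intact skin (2.24 to 2.30).

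Plau was more abundant in incised than in intact skin, and both oligonucleotide groups overlapped their controls. The urokinase gene had log2 ratios of 0.07, -0.02 and 0.12 in mimic-treated incisions, against -0.47, -0.19 and -0.02 in PBS-treated incisions. In intact skin it had -0.72, -0.57 and -0.53 with antimiR, against -0.53, -1.08 and -0.85 with PBS. All 3 PBS-treated incisions lay above all 3 PBS-treated intact samples, and the order of the groups was mimic, incised PBS, antimiR and intact PBS, with a gap in range only between incised PBS and antimiR. Plau rose by 0.60 ± 0.15 (log2, SE) in incised against intact skin under PBS (limma adjusted p = 0.021), a 1.51-fold difference. That call was lost without incised PBS array 2 (0.58, adjusted p = 0.063), incised PBS array 3 (0.49, adjusted p = 0.077) or intact PBS array 2 (0.47, adjusted p = 0.054). Fitting only the PBS groups lost it as well. The mimic difference was 0.28 ± 0.15 (adjusted p = 0.48) and the antimiR difference 0.21 ± 0.15 (adjusted p = 0.42).

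Plat, the gene of tissue plasminogen activator, ordered the groups differently: the samples that received either oligonucleotide were the lower ones. Mimic arrays 2 and 3 gave -0.09 and -0.28, and mimic array 1 has no value because its spot was left out as an outlier, against 0.44, 0.24 and 0.38 in PBS-treated incisions. AntimiR-treated intact skin gave -0.23, -0.15 and -0.07, against 0.23, 0.30 and 0.02 in PBS-treated intact skin. In both pairs the oligonucleotide arrays lay below every PBS array, and neither difference passed the threshold: -0.54 ± 0.11 for the mimic, over 2 arrays against 3 (adjusted p = 0.076), and -0.33 ± 0.10 for antimiR (adjusted p = 0.067). The antimiR difference was -0.64 from the extraction program's processed signals (adjusted p = 0.02), and -0.41 without intact PBS array 3 (adjusted p = 0.03). It was -1.3 with Cy5 alone (adjusted p = 0.19), not called, so its size and its call depended on the processing. With slide as a fixed block it was -0.17, which rests on intact PBS array 3 alone. On antimiR array 3 the Plat spot was not well above background, at 1.42 times its local background in Cy5. Incised and intact skin under PBS overlapped, with a difference of 0.17 ± 0.10 (adjusted p = 0.28).

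Plaur, the urokinase receptor, was highest in mimic-treated incisions. Its log2 ratios were -0.36, -0.36 and -0.43 with mimic, against -0.86, -0.76 and -0.57 with PBS in incised skin. They were -0.71, -0.57 and -1.16 with antimiR, against -1.27, -0.92 and -1.79 with PBS in intact skin. The mimic arrays lay above every incised PBS array, the incised PBS arrays lay above every intact PBS array, and the antimiR arrays overlapped both PBS groups. No Plaur difference passed the threshold: 0.35 ± 0.20 with mimic (adjusted p = 0.54), 0.51 ± 0.20 with antimiR (adjusted p = 0.15) and 0.60 ± 0.20 in incised against intact skin under PBS (adjusted p = 0.072). Without intact PBS array 2 the antimiR and wound differences of Plaur were 0.72 (adjusted p = 0.046) and 0.80 (adjusted p = 0.022). Without intact PBS array 3 they were 0.28 (adjusted p = 0.33) and 0.36 (adjusted p = 0.19).

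Serpine2, the serpin that inhibits urokinase, tissue plasminogen activator and thrombin, was the gene whose replicates lay closest in intact skin under PBS, and it was the only member called in both intact-skin antimiR and wound comparisons. It had log2 ratios of 1.42, 1.18 and 1.38 in mimic-treated incisions, against 1.53, 1.42 and 1.37 in PBS-treated incisions. With antimiR it had 1.71, 1.66 and 1.54, against 2.25, 2.24 and 2.30 in PBS-treated intact skin. Every antimiR array and every incised PBS array lay below every intact PBS array, and antimiR arrays lay above incised PBS arrays. Serpine2 fell by 0.62 ± 0.08 with antimiR (adjusted p = 0.0015; 1.54-fold lower) and by 0.82 ± 0.08 in incised against intact skin under PBS (adjusted p = 0.00045; 1.77-fold lower). Both differences use the same 3 intact PBS arrays. Without intact PBS array 2 they were -0.64 and -0.83, and without intact PBS array 3 they were -0.61 and -0.80, all called. The mimic difference was -0.11 ± 0.08 (adjusted p = 0.65; 95% interval -0.30 to 0.07), and it was 0.04 from the processed signals. The mimic difference minus the antimiR difference was 0.51 ± 0.12 (adjusted p = 0.079).

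Timp1, an inducible inhibitor of metalloproteinases, had the largest difference of the 7 genes between incised and intact skin. It had 0.86, 0.76 and 0.22 in mimic-treated incisions, against 0.35, 0.14 and -0.12 in PBS-treated incisions. It had -0.96, -0.36 and -0.80 with antimiR, against -1.63, -1.06 and -2.05 with PBS in intact skin. The groups stood in the order mimic, incised PBS, antimiR and intact PBS, and only mimic and incised PBS overlapped. Timp1 rose by 1.70 ± 0.26 in incised against intact skin under PBS (adjusted p = 0.0027; 3.26-fold), and by 1.97 and 1.47 without intact PBS arrays 2 and 3 (adjusted p = 0.001 and 0.0068). The antimiR difference of 0.87 ± 0.26 missed the threshold (adjusted p = 0.059), and was 1.14 without intact PBS array 2 (adjusted p = 0.018) and 0.64 without intact PBS array 3 (adjusted p = 0.13). The mimic difference was 0.49 ± 0.26 (adjusted p = 0.49).

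Timp2, which inhibits metalloproteinases and also takes part in activating Mmp2 on the cell surface, gave different pictures on its 2 probes. The brighter probe had 0.22, 0.30 and 0.16 in mimic-treated incisions, all below the 0.91, 0.38 and 0.89 in PBS-treated incisions. The same probe had 1.28, 0.83 and 0.87 with antimiR, against 0.89, 0.73 and 1.20 with PBS in intact skin, which overlapped. Its differences were -0.50 ± 0.17 with mimic (adjusted p = 0.25), 0.05 ± 0.17 with antimiR (adjusted p = 0.89) and -0.22 ± 0.17 in incised against intact skin under PBS (adjusted p = 0.42). The second probe had 0.27, 0.37 and 0.15 with mimic, against 0.66, 0.33 and 0.43 with PBS in incised skin, so these groups overlapped. It had 0.62, 0.22 and 0.28 with antimiR, against 0.13, 0.30 and 0.15 with PBS in intact skin. Neighbouring groups on the second probe all overlapped, and its differences were -0.21 ± 0.12 with mimic (adjusted p = 0.55), 0.18 ± 0.12 with antimiR (adjusted p = 0.41) and 0.28 ± 0.12 in incised against intact skin (adjusted p = 0.15). The probes thus differed in sign between incised and intact skin, and neither was called in any comparison.

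Timp3, a matrix-bound inhibitor that also restrains ADAM proteases, ran opposite to Timp1 across the groups. It had -1.14, -1.26 and -1.02 in mimic-treated incisions, against -0.47, -0.55 and -0.49 in PBS-treated incisions. It had 0.31, 0.25 and -0.17 with antimiR, against 0.40, 0.05 and 0.93 with PBS in intact skin. The incised groups did not overlap each other or either intact group, while antimiR and intact PBS did. Timp3 fell by 0.96 ± 0.19 in incised against intact skin under PBS (adjusted p = 0.0094; 1.95-fold lower), and by 1.17 and 0.73 without intact PBS arrays 2 and 3 (adjusted p = 0.0031 and 0.015). Fitting only the PBS groups lost this call. The mimic difference of -0.64 ± 0.19 was not called when all 4 groups shared an estimate of the spread (adjusted p = 0.19), and was called when only the incised groups were fitted (adjusted p = 0.024). The antimiR difference was -0.33 ± 0.19 (adjusted p = 0.34).

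**Figure D2:**
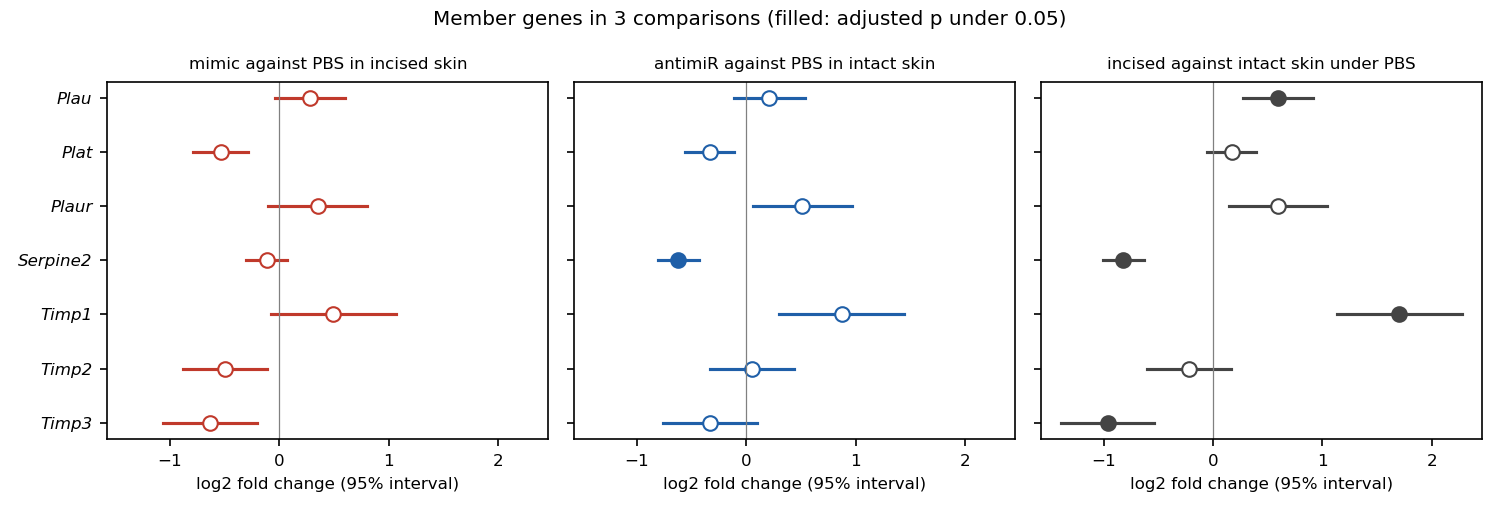
Log2 fold change with its 95% interval (horizontal axis) for the 7 genes in 3 comparisons, filled where the adjusted p was under 0.05. Serpine2 is filled under antimiR (-0.62), and Plau (0.60), Timp1 (1.70), Serpine2 (-0.82) and Timp3 (-0.96) are filled in incised against intact skin.

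The arrays of the compared groups were fully separated for 4 of the 7 genes under the mimic, for 3 under antimiR and for 5 in incised against intact skin under PBS. The same held for 24.2%, 25.8% and 35.2% of all genes. The median log2 difference over the 7 genes was -0.11, 0.05 and 0.17 in these comparisons, while the median of all genes lay no farther from 0 than 0.01. The mimic and antimiR differences were compared with each other gene by gene, and limma called 0 of the 7, where 1.09% of all genes were called. By unadjusted p under 0.05 there were 2 of the 7, Serpine2 and Timp2, and 2885 of all genes. The mimic difference of Timp2 minus its antimiR difference was -0.55 ± 0.25 (adjusted p = 0.34; 95% interval -1.09 to -0.01). The other 5 genes had adjusted p from 0.63 to 0.94, with intervals as wide as -1.19 to 0.43 for Timp1.

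The arrays lay on 3 slides of 4. Slide 1 held the 3 PBS-treated incisions and mimic array 1, slide 2 mimic arrays 2 and 3 with intact PBS arrays 1 and 2, and slide 3 intact PBS array 3 with the 3 antimiR arrays. Within slide 1 the mimic difference was 0.29 for Plau, 0.37 for Plaur, -0.03 for Serpine2, 0.73 for Timp1, -0.51 for Timp2 and -0.64 for Timp3, from a single mimic array and with no value for Plat. Within slide 3 the antimiR difference was 0.24 for Plau, -0.17 for Plat, 0.98 for Plaur, -0.66 for Serpine2, 1.35 for Timp1, -0.21 for Timp2 and -0.80 for Timp3, against intact PBS array 3 alone. No calls are given within either slide, because each fit rests on a single array of a group. No slide held both PBS groups. Fitting slide as a fixed block returned the antimiR differences within slide 3, so they again rest on intact PBS array 3 alone. Incised and intact skin are linked in that fit only through mimic array 1, the single mimic array on slide 1. With slide as a fixed block, the differences between incised and intact skin under PBS kept their signs at 0.57 for Plau, -0.94 for Serpine2, 1.1 for Timp1 and -0.72 for Timp3, and 0 of the 4 calls remained (adjusted p from 0.1 to 0.44), with 11 genes called in all.

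Cell type markers moved in the same comparisons, and in bulk skin fewer cells of a type and less RNA per cell cannot be told apart. For scale, 0.591% of all genes were called with mimic, 9.71% with antimiR and 15.4% in incised against intact skin under PBS. An unadjusted p under 0.05 was held by 2553, 4925 and 6427 of 20469 genes. In incised against intact skin under PBS, 5 of 10 macrophage markers (Adgre1, Cd68, Csf1r, Fcgr1 and Trem2) rose, and the marker score ran from 0.28 to 0.45 in PBS-treated incisions and from -0.61 to -0.16 in PBS-treated intact skin. Of 9 neutrophil markers measured, 2 (S100a9 and Cxcr2) rose, with scores from -0.03 to 0.31 in PBS-treated incisions and from -0.68 to -0.40 in PBS-treated intact skin. With antimiR 3 macrophage markers (Cd68, Fcgr1 and Trem2) rose, though 5 of the 10 were higher and 5 lower, at a median of 0.06. The score ran from -0.69 to 0.08, overlapping PBS-treated intact skin. Neutrophil markers gave 2 calls with antimiR, S100a9 (0.87, adjusted p = 0.047) and Mmp8 (1.87, adjusted p = 0.013), with scores from -0.47 to 0.08 against -0.68 to -0.40 in PBS-treated intact skin, and 1 call with mimic, Mmp8 (2.15, adjusted p = 0.037), with scores from 0.22 to 0.70 against -0.03 to 0.31 in PBS-treated incisions. With mimic 3 of 10 fibroblast markers (Dpt, Pi16 and Clec3b) fell, and the score ran from -0.62 to -0.36 against 0.17 to 0.36 in PBS-treated incisions. Macrophage markers had 0 calls with mimic, with 7 higher and 3 lower at a median of 0.16. Their scores ran from 0.48 to 0.67 with mimic, against 0.28 to 0.45 in PBS-treated incisions. Of 10 skeletal muscle markers 3 (Myh1, Pvalb and Atp2a1) were called lower with mimic and 2 (Acta1 and Myh1) with antimiR. All 10 were lower in both comparisons, at medians of -0.56 and -0.42, with 10 and 7 at an unadjusted p under 0.05. Muscle scores ran from -0.44 to -0.12 with mimic against 0.19 to 0.34 in PBS-treated incisions. With antimiR they ran from -0.30 to -0.004 against 0.14 to 0.40 in PBS-treated intact skin. In incised against intact skin under PBS 2 muscle markers rose, Myh4 by 0.46 (adjusted p = 0.035) and Pvalb by 0.39 (adjusted p = 0.023). There 6 of the 10 were higher and 4 lower, at a median of 0.04. Endothelial, adipocyte, hair follicle and T or NK cell markers gave 0 calls by limma in the 3 comparisons, with at most 3 markers of a list at an unadjusted p under 0.05. All 8 adipocyte markers were lower with mimic and with antimiR, at medians of -0.38 and -0.54. Adipocyte scores overlapped those of the PBS controls in both. Neither the part of these cell types in the 7 genes' differences nor an excess of marker calls over all genes was tested.

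The 7 genes were also followed with their partners. Of all genes 0.591% were called with mimic, 9.71% with antimiR and 15.4% in incised against intact skin under PBS. With mimic 2553 of 20469 genes had an unadjusted p under 0.05. The counts of the lists below were not tested against these shares. Of 26 listed genes of the plasminogen system, 22 were measured, and Plg, Serpina5, F12 and Fgg were not. In incised against intact skin under PBS 2 of the genes described here fell, with a median of 0.06 over the 22. Serpinb2, a serpin inhibitor of urokinase, fell by 1.21 ± 0.33 (adjusted p = 0.032), and S100a10, a plasminogen-binding partner of annexin A2, fell by 0.59 ± 0.17 (adjusted p = 0.039). This list had 0 calls without incised PBS array 1, incised PBS array 2 or intact PBS array 1.

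With antimiR 2 plasminogen system genes rose and 1 fell, with a median of -0.04. Serpinf2, the gene of the plasmin inhibitor alpha-2-antiplasmin, averaged 0.93 with antimiR and 0.29 with PBS and rose by 0.64 ± 0.14 (adjusted p = 0.015). Lrp1, an endocytic receptor that clears activators bound to their inhibitors, averaged 0.70 with antimiR and 0.08 with PBS and rose by 0.62 ± 0.11 (adjusted p = 0.0051). Vldlr, a related receptor, fell by 1.33 ± 0.27 (adjusted p = 0.011). These 3 calls were lost when only the intact groups were fitted (adjusted p from 0.058 to 0.093). Over the processing alternatives Serpinf2 ran from 0.62 to 1.46 and Lrp1 from 0.33 to 0.71, with the call lost in 2 and 4 of 14. With mimic limma called 0 of the 22, at a median of 0.13, and 6 had an unadjusted p under 0.05.

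Of 22 metalloproteinases whose activity TIMPs hold in check, 20 were measured, and Mmp7 and Mmp16 were not. In incised against intact skin under PBS 4 rose and 0 fell, with a median of 0.32: Mmp13 (collagenase 3) by 3.31 ± 0.59, Mmp9 (gelatinase B) by 2.21 ± 0.33, Adamts4 (an aggrecanase) by 2.02 ± 0.43 and Adam10 (a sheddase) by 0.68 ± 0.16, with adjusted p from 0.0024 to 0.023. The Adam10 call ended without incised PBS array 2 or 3. Over the processing alternatives Mmp13 ran from 1.74 to 4.20, Mmp9 from 1.56 to 3.17, Adamts4 from 1.08 to 2.25 and Adam10 from 0.28 to 0.74, with the call lost in 1, 1, 2 and 3 of 13. With antimiR 3 rose and 0 fell, with a median of 0.12: Mmp3 (stromelysin 1) by 2.36 ± 0.35, Mmp8 (neutrophil collagenase) by 1.87 ± 0.38 and Mmp14 (a membrane-bound activator of Mmp2) by 0.71 ± 0.19, with adjusted p from 0.0026 to 0.04. The Mmp14 call was kept when intact PBS array 1 was left out and ended without any other array of the intact groups. Over the processing alternatives Mmp8 with antimiR ran from 1.83 to 3.19, and 3 of 13 lost the call. With mimic 1 rose, Mmp8, which averaged 3.50 with mimic and 1.35 with PBS in incised skin and rose by 2.15 ± 0.38 (adjusted p = 0.037), at a list median of 0.11. Leaving out any 1 array of the incised groups ended that call.

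Of 28 other protease inhibitors 25 were measured, and A2m, Spock1 and Spock3 were not. In incised against intact skin under PBS 4 rose and 1 fell, with a median of 0.10. Slpi, an inhibitor of neutrophil elastase, averaged -1.17 in PBS-treated incisions and -3.03 in PBS-treated intact skin and rose by 1.87 ± 0.30 (adjusted p = 0.0035). Tfpi and Tfpi2, Kunitz-type inhibitors of clotting proteases and plasmin, rose by 0.71 ± 0.16 and 0.52 ± 0.14 (adjusted p = 0.017 and 0.03), and Wfdc2 rose by 0.29 ± 0.08 (adjusted p = 0.029). Reck, a membrane-anchored metalloproteinase inhibitor, fell by 1.04 ± 0.17 (adjusted p = 0.004), and of the 5 calls those of Slpi and Reck were kept without each array in turn. Over the processing alternatives Tfpi ran from 0.18 to 0.86 and lost its call in 6 of 13, Tfpi2 from 0.42 to 1.45 with the call lost in 2 of 12, and Wfdc2 from 0.23 to 2.41 with the call lost in 5 of 12. Reck ran from -1.41 to -0.61 with the call lost in 1 of 13. With antimiR 1 fell, Spint2, an inhibitor of serine proteases, by 0.60 ± 0.17 (adjusted p = 0.048), a call that ended without any array of the intact groups other than intact PBS array 3. Over the processing alternatives Spint2 ran from -0.66 to -0.11, and 9 of 14 lost the call. With mimic limma called 0 of the 25 at a median of -0.01, and 6 had an unadjusted p under 0.05. When slide was fitted as a fixed block, the 3 lists had 0 calls by limma in incised against intact skin under PBS. For antimiR that fit rests on intact PBS array 3 alone, and for the mimic on mimic array 1 alone, so no counts are given. As a random block, slide left 4 metalloproteinases, 5 other inhibitors and 0 plasminogen system genes called in incised against intact skin, and 0 genes of the lists with mimic. Timp4, the remaining TIMP, averaged 1.36 in PBS-treated incisions and 2.50 in PBS-treated intact skin (adjusted p = 0.32).

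**Figure D3:**
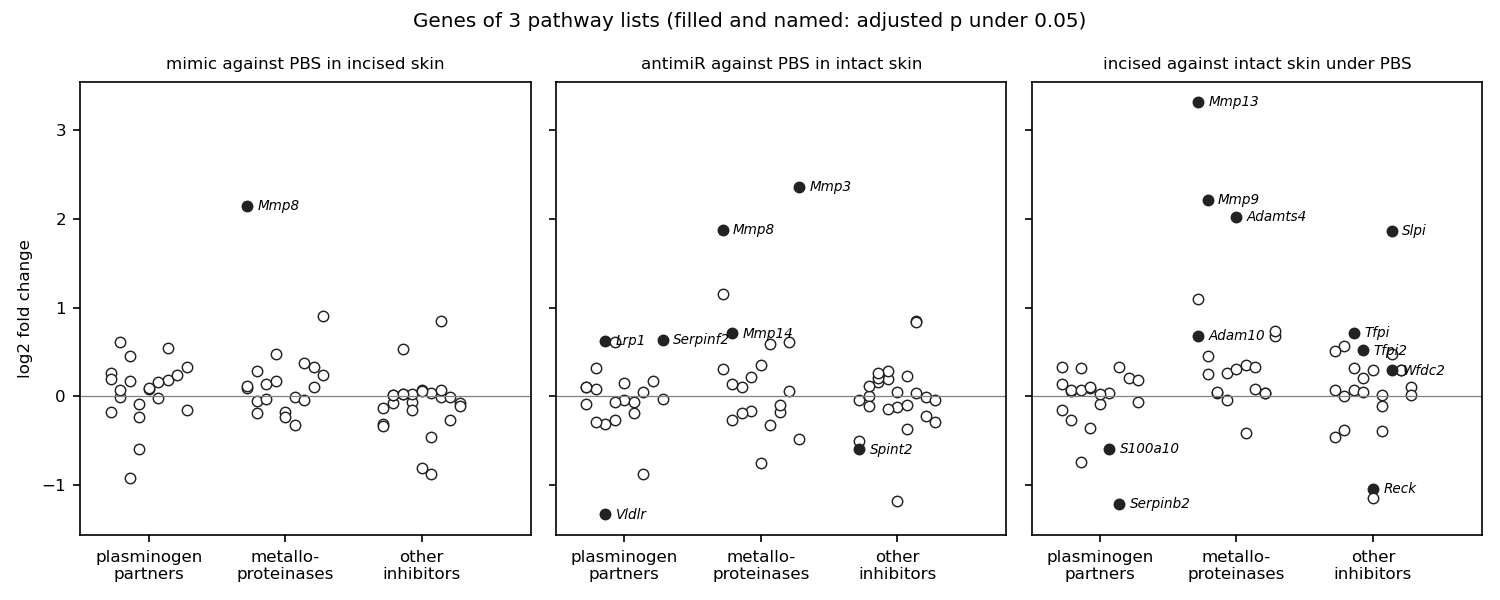
Log2 fold change (vertical axis) of the measured genes of 3 pathway lists, all but 1, in 3 comparisons, filled and named where the adjusted p was under 0.05. Metalloproteinases are the list with calls in every comparison, all upward (Mmp8 with mimic, 3 genes with antimiR, 4 genes in incised skin). Of all genes 0.591%, 9.71% and 15.4% were called in these comparisons, and an excess in the list was not tested. The other lists have calls on both sides of 0.

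The 7 genes did not follow the same pattern over the 12 arrays. Timp1 and Timp3 had a Pearson r of -0.93 (-0.62 for deviations from group means), Plaur and Timp1 0.86 (0.59), and Plau and Plaur 0.67 (-0.13). The arrays share slides, a reference RNA and groups, so these are descriptions without a test. Of 15273 genes with a value on all arrays, the 3 most like Timp1 were Apobec1, Gpr65 and Slc1a4, at 0.98 each. Plaur was most like Ccr2 (0.96, and 0.96 for deviations from group means), Pira11 and Nrros, and Plau most like Wfdc2 (0.94), Gpr183 and Alcam. Serpine2 was most like Mlip (0.95), Slc49a4 and Sqstm1, Timp2 most like Rev3l (0.94), Inmt and Dpep1, and Timp3 was close to Tmcc2 and Gphn (0.97 each). Over the 11 arrays with a Plat value, Plat was most like Cnot4 (0.93), Tuba3b and Rbfox1.

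Promoters are shown for the 3 inhibitors called between incised and intact skin, as 250 bases upstream of the transcript start from RefSeq (GRCm38.p6). The table holds entries for 5 of the 7 genes, all but Plau and Plat. They lie at chr1:79858666-79858915 (minus) for Serpine2, chrX:20869916-20870165 (plus) for Timp1 and chr10:86300162-86300411 (plus) for Timp3. Capitals mark the GC box GGGCGG on either strand, which 32.7% of 32851 promoters of this length hold.
Serpine2 promoter: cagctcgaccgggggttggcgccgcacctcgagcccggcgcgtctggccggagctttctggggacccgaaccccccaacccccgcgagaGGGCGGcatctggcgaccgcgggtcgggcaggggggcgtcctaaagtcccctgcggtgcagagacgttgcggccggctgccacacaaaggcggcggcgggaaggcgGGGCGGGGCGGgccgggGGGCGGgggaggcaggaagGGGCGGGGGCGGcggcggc
Timp1 promoter: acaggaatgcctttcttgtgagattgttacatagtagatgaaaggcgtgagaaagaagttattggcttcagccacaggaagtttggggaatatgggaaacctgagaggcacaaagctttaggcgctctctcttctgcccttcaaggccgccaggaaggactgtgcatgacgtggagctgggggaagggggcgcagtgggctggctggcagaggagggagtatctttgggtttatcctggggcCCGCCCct
Timp3 promoter: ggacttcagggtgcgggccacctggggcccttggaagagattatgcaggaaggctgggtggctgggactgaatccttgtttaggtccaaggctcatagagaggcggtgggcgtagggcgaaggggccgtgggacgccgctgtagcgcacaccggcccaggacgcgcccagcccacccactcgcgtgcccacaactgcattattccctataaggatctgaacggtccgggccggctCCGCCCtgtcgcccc

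Serpine2 held 6 matches to the GC box, some of them overlapping, between 161 and 13 bases upstream of the start. Timp1 held 1 match at 8 bases and Timp3 1 at 15 bases, both on the opposite strand, while Timp2 held 1 and Plaur 3. The AP-1 motif TGANTCA, present in 6.75% of promoters, was found in 1 of the 5 genes, Plaur, at 69 bases upstream. The CCAAT box (33.8% of promoters) was found in Timp1 and Timp2, and the TATA box TATAAA (12.4%) and the Ets motif CCGGAAGT (2.88%) in none of the 5. A match is a description of the letters in these windows.

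**Figure D4:**
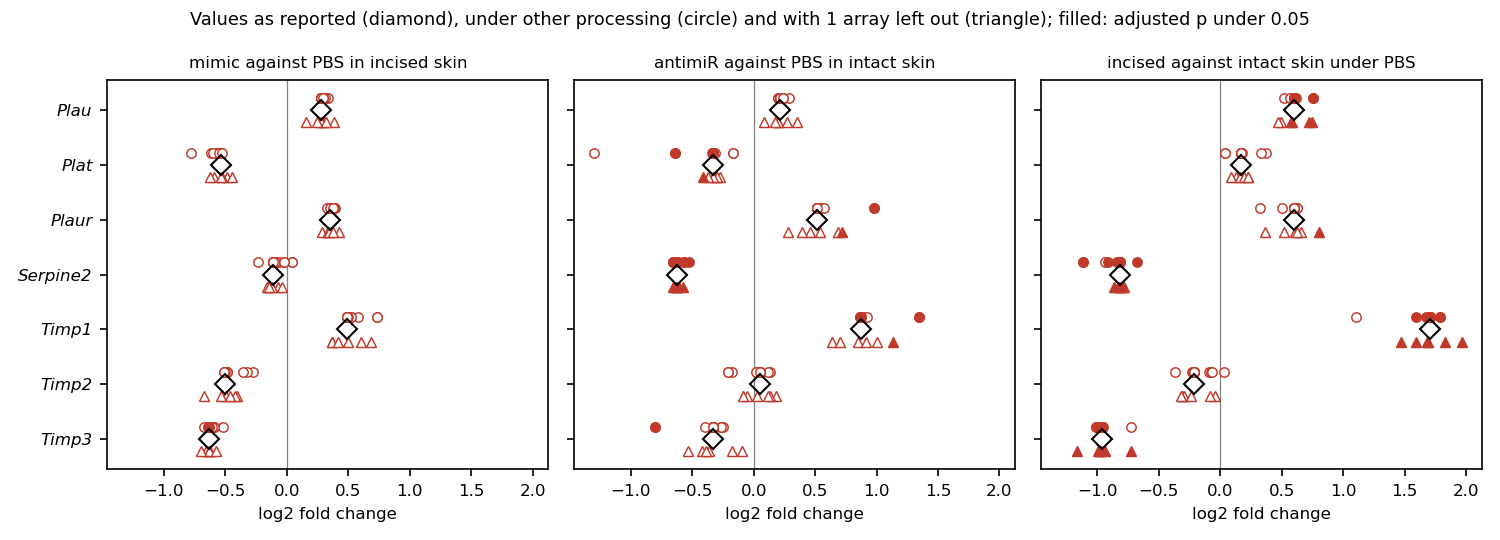
Log2 fold change (horizontal axis) of the 7 genes as reported (diamond), under other processing (circles) and with 1 array left out (triangles), filled where the adjusted p was under 0.05. The circles include Plat with slide as a fixed block, where its mimic and wound values cannot be estimated. For mimic and antimiR, circles with slide as a fixed block or within a slide rest on a single array of a group. Serpine2 under antimiR and Serpine2, Timp1 and Timp3 in incised against intact skin keep their sign throughout, while Timp2 under antimiR falls on both sides of 0 (-0.21 to 0.185).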

How the data were processed

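Agilent 2-colour arrays carried skin RNA in Cy5 and a universal mouse reference RNA in Cy3, without a dye swap. Per the file headers, Feature Extraction 11.5.1.1 gave spot and background brightness as intensity, processed intensity and a log10 ratio. A log2 table by gene name, deposited by the authors, matched skin over reference.

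Background was corrected by normexp (offset 50) on mean spot signals, and loess was run within arrays (limma 3.58.1, R 4.3.3). Control and outlier spots were left out, as were 1687 unnamed probes. Probes had to be well above background in Cy5 on 3 or more of 12 arrays, which left 27151. A gene was represented by its probe of highest average intensity. Group means of all 12 arrays were fitted together (lmFit, eBayes), and adjusted p values are 2-sided and Benjamini-Hochberg over all genes. Errors after log2 differences are standard errors. The fit was tested on simulated data.

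The 7 genes, the gene lists and the rule for named genes (all called list genes, and the 3 genes most like each member) were chosen with earlier results of these data known. Alternatives covered background, normalization, scaling, Cy5 alone, the deposited table, the probe filter, the mean over probes, the samples fitted, the variance model, slide, replicate number and each array left out. Results of 2 genes, 1 of them called among the plasminogen partners, are not reported here.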

Additional observations from a re-analysis of the deposited data

How the results depend on the processing

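Of 576 values of the 7 genes over the alternatives, 536 kept their sign and their side of the threshold, 11 lost a call, 14 gained one and 15 changed sign. This total includes Plat with slide as a fixed block. As mimic array 1 has no Plat value, slide 1 then held only PBS-treated incisions. The mimic, wound and difference-of-effects values of Plat in that fit therefore cannot be estimated. The count called with mimic, 0, was 1 when only the compared groups were fitted and was 0 with each array left out. The count called with antimiR, 1, was 2 from the processed signals, 2 from the deposited table, 3 with a trend and robust variances and 2 with a replicate block. That count ran from 1 to 3 with each array left out. With slide as a fixed block, as within slide 3, the antimiR differences rest on a single PBS array, so no count is given. The count in incised against intact skin under PBS, 4, was 2 (Serpine2 and Timp1) when only the compared groups were fitted. That count was 0 with slide as a fixed block, and ran from 3 to 4 with each array left out. The Plau call there was also lost with Cy5 alone (0.51, adjusted p = 0.084). The mimic effect minus the antimiR effect, with 0 calls, had 1 after scaling between arrays (Serpine2, 0.59, adjusted p = 0.044). The cause of these changes was not tested.

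Serpine2 with mimic was 0.0391 from the processed signals and from the deposited table. Timp2 with antimiR was -0.18 with Cy5 alone, -0.21 with slide as a fixed block and within slide 3, and from -0.0881 to 0.185 with each array left out (negative without intact PBS array 2 or antimiR array 1), and in incised against intact skin it was 0.0296 as the mean over probes. The mimic effect minus the antimiR effect became 0.0569 (processed signals), 0.68 (Cy5 alone) and 0.0345 (deposited table) for Plat, 0.16 for Timp3 (slide as a fixed block), and with an array left out it ran from -0.0765 to 0.199 for Plau (negative without incised or intact PBS array 1) and from -0.369 to 0.0667 for Plaur (positive without intact PBS array 3).

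Over all genes, the mimic comparison had 121 calls, but 38 from the processed signals, 45 with Cy5 alone, 16 from the deposited table, 438 when only the compared groups were fitted, 71 with a trend and robust variances, 59 with slide as a random block, and from 1 to 54 with an array left out. The antimiR comparison had 1987, but 1200 with Cy5 alone, 537 with the compared groups only and from 1090 to 2096 with an array left out. For both comparisons, no count is given with slide as a fixed block or within a slide. Those fits rest on a single array of a group. Incised against intact skin under PBS had 3154, but 1738 with Cy5 alone, 1365 with the compared groups only, 11 with slide as a fixed block and from 1693 to 2964 with an array left out. The difference of effects had 223, but 369 from the processed signals, 76 with Cy5 alone, 359 from the deposited table, 17 with slide as a fixed block, 125 with it as a random block and from 64 to 418 with an array left out.

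Same-numbered arrays of different groups had correlations of their deviations from -0.44 to 0.47. These deviations come from few arrays that share slides, so they cannot decide whether the numbers pair the samples. The replicate block called 2 of the 7 genes with antimiR (Serpine2 and Timp1, Timp1 at adjusted p = 0.026), 0 with mimic and the same 4 in incised against intact skin, and 77 of all genes with mimic. Of 384 values of called pathway genes under these alternatives, chosen after seeing the data, 110 lost the call and 0 changed sign. Signal limits Plat, which had 11 of 12 arrays well above background, and Plau and Serpine2, at 4.66 to 16.3 and 4.98 to 12.9 times background.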
